A study of Bos taurus with 8 samples.

Results

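The miRNAs bta-miR-103 and bta-miR-107 were measured in 4 sera and 4 exosome small RNA libraries from dairy cattle. Both were taken by name from the deposited tables, and they are 2 of 534 miRNAs listed (445 had a read somewhere). The 4 animals were healthy lactating Holstein cows, and each cow gave 1 serum library (SE1 to SE4) and 1 library of exosomes isolated from that serum (EX1 to EX4). No treatment was given, and no group other than the sample type was compared. The sera were not freed of exosomes, so the serum libraries hold exosomal miRNAs too. The serum RNA was extracted with a Norgen kit and the exosome RNA with Invitrogen kits, so differences between the sample types and differences between the extractions cannot be told apart. The values were RPM, each miRNA's part of all miRNA reads of its library scaled to a common total, with 264769 to 590162 miRNA reads per serum library and 60682 to 157710 per exosome library. A value is therefore a proportion, not an amount per mL of serum. Because serum gathers RNA from many tissues, fewer source cells and less RNA released per cell cannot be told apart.

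MiR-103 and miR-107 are close relatives whose mature strands carry the same seed, the bases near the 5′ end with which a miRNA pairs with its target mRNAs, and differ only near the 3′ end. They lie in genes of the pantothenate kinases, the enzymes that start the synthesis of coenzyme A. They are known from mice for lowering insulin sensitivity of liver and fat tissue, with caveolin-1 as a target, and they also target Dicer, the enzyme that cuts miRNA precursors. In the RefSeq annotation of ARS-UCD2.0, the cattle gene MIR103-1 lay within the span of PANK3, MIR103-2 within PANK2 and MIR107 within PANK1. The 2 MIR103 genes share 1 row in the tables, so their parts in bta-miR-103 could not be separated. The deposited values carry no coordinates, and positions on the assembly the authors used are not given.

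Both miRNAs were abundant in every library, and both took a larger share of the miRNA reads in sera than in exosomes. For bta-miR-103, the sera of cows 1 to 4 had 13695, 10390, 11285 and 10881 RPM, and the exosomes 8553, 5287, 7536 and 6455 RPM. These values rested on 2988 to 6132 reads in sera and on 519 to 1018 reads in exosomes. For bta-miR-107, the sera had 13104, 10036, 10519 and 10344 RPM, and the exosomes 7943, 5092, 6941 and 6036 RPM. The lowest serum was above the highest exosome library for both miRNAs, by 1838 RPM for bta-miR-103 and by 2093 RPM for bta-miR-107. Counting error did not close this gap for bta-miR-103, though it was not small beside it. The shallowest library, the exosomes of cow 1, had the highest exosome value, with a 95% Wilson interval of 7851 to 9317 RPM. That of the lowest serum, from cow 2, was 10135 to 10652 RPM. PCR copies of a molecule are read more than once, so such intervals cover counting error only.

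**Figure D1:**
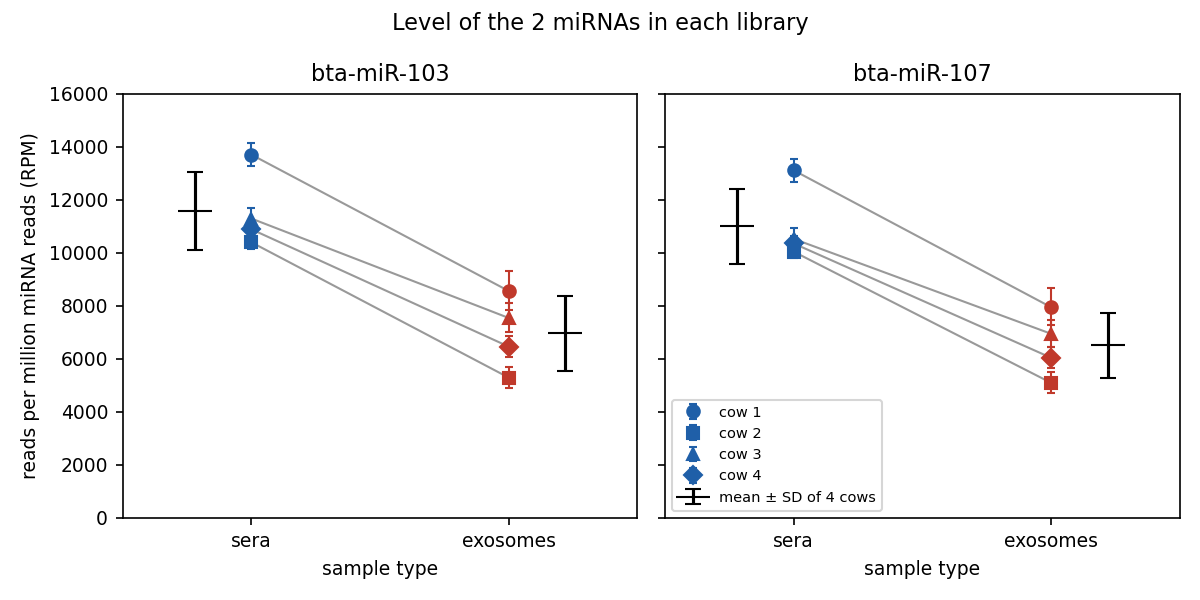
The RPM of bta-miR-103 (left) and bta-miR-107 (right) in each library, with blue symbols for sera, red for exosomes, one symbol shape and grey line per cow, 95% Wilson intervals on the symbols and mean ± SD (n = 4) in black. All 4 lines fall from sera to exosomes, and the lowest serum of bta-miR-103 (10390 RPM) lies above its highest exosome value (8553 RPM).

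The sera averaged 11563 ± 1468 RPM of bta-miR-103 and the exosomes 6958 ± 1405 RPM (SD, n = 4), or 1.16% and 0.696% of the miRNA reads. For bta-miR-107 the averages were 11001 ± 1416 RPM and 6503 ± 1221 RPM (SD, n = 4). Each difference in mean RPM had an exact permutation p of 0.0286 (two-sided), the smallest that 4 against 4 libraries allow. Among all 365 miRNAs expressed above 1 RPM in at least 2 libraries of either sample type, 11.8% had every serum above every exosome library. Among the 128 well-counted miRNAs, defined by 10 reads or more in each of the 8 libraries and including both members, it was 21.9%. The serum exceeded the exosomes in 4 of 4 cows, and the exact sign-flip test on these pairs cannot go below its p of 0.125. Within cows the fold was 1.60, 1.97, 1.497 and 1.69 for bta-miR-103 in cows 1 to 4. For bta-miR-107 it was 1.65, 1.97, 1.52 and 1.71, so the largest fold of both was in cow 2.

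By limma on log2(RPM + 1) over all 365 miRNAs, bta-miR-103 had a log2 fold change (FC) of 0.75 in favour of sera (standard error 0.20, 95% interval 0.32 to 1.17, FDR = 0.0337). The log2 FC of bta-miR-107 was 0.77 (standard error 0.19, 95% interval 0.35 to 1.19, FDR = 0.0252). Both miRNAs thus had an FDR under 0.05, as did 5.21% of all 365 miRNAs tested in the direction of sera and 1.64% in that of exosomes. Such calls were more frequent among well-counted miRNAs. With limma fitted to the 128 well-counted miRNAs alone, 30 had an FDR under 0.05 in favour of sera and 7 in favour of exosomes. In that fit the FDR was 0.0163 for bta-miR-103 and 0.0132 for bta-miR-107, both in favour of sera. Neither member reached the log2 FC of 1 that the study set as a second limit, which 3.01% of all 365 miRNAs passed with an FDR under 0.05 in favour of sera. With the cow as a replicate block, limma gave an FDR of 1.9e-09 for bta-miR-103 and 5.9e-10 for bta-miR-107, and the share of miRNAs with an FDR under 0.05 rose to 23.0% in favour of sera and 3.29% in favour of exosomes. FDRs this small rest on variance pooled over miRNAs, not on 4 pairs alone. Without the block, leaving out any 1 of the sera libraries, or the exosome library of cow 2 or of cow 4, took the limma FDR to between 0.0574 and 0.103 for bta-miR-103 and between 0.0513 and 0.0828 for bta-miR-107.

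**Figure D2:**
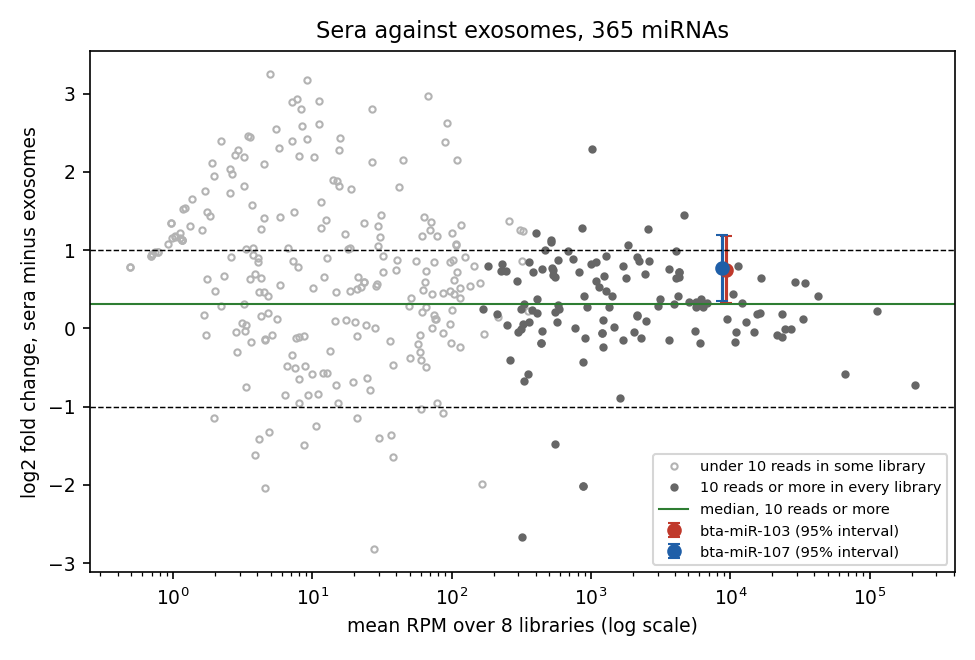
The log2 FC (sera minus exosomes) against the mean RPM over 8 libraries (log scale) for 365 miRNAs, with filled grey points for the 128 well-counted miRNAs, open points for the others, and 95% intervals on the 2 miRNAs. Bta-miR-103 (0.75) and bta-miR-107 (0.77) lie side by side above the green median (0.31) and below the dashed limit of 1.

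The size of the difference moved with the scaling. RPM are shares, and the most abundant miRNA, miR-486 of red blood cells, took 158802 ± 31862 RPM of the sera and 267558 ± 72036 RPM of the exosomes (SD, n = 4). The median log2 FC of the 128 well-counted miRNAs was 0.31 on the RPM scale. It was 0.11 with the TMM factors of edgeR on the recovered reads and -0.02 with the size factors of DESeq2. On these scales bta-miR-103 had a log2 FC of 0.56 (edgeR quasi-likelihood test, FDR = 0.13) and 0.43 (DESeq2, FDR = 0.0879), and bta-miR-107 of 0.58 (edgeR, FDR = 0.11) and 0.45 (DESeq2, FDR = 0.0705). An FDR under 0.05 in favour of sera was reached by 2.74% of 365 miRNAs with edgeR and TMM and by 4.98% of the 241 to which DESeq2 gave an FDR, and in favour of exosomes by 2.19% and 6.64%. With miR-486 left out of the total, limma gave 0.54 (FDR = 0.0864) and 0.57 (FDR = 0.0744). With the replicate block, edgeR with TMM gave an FDR of 0.000117 for bta-miR-103 and 5.9e-05 for bta-miR-107. Relative to the median of each scale, the log2 FC of bta-miR-103 was 0.44 by limma, 0.45 by edgeR with TMM and 0.45 by DESeq2, and that of bta-miR-107 was 0.46, 0.47 and 0.47. In the order of log2 FC among the 128 miRNAs, bta-miR-103 was ranked 29 by limma and 25 by DESeq2, and bta-miR-107 was ranked 25 and 22. The direction was thus the same on every scale, while of these scales limma on RPM was the one with an FDR under 0.05 for both miRNAs when no block was used.

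**Figure D3:**
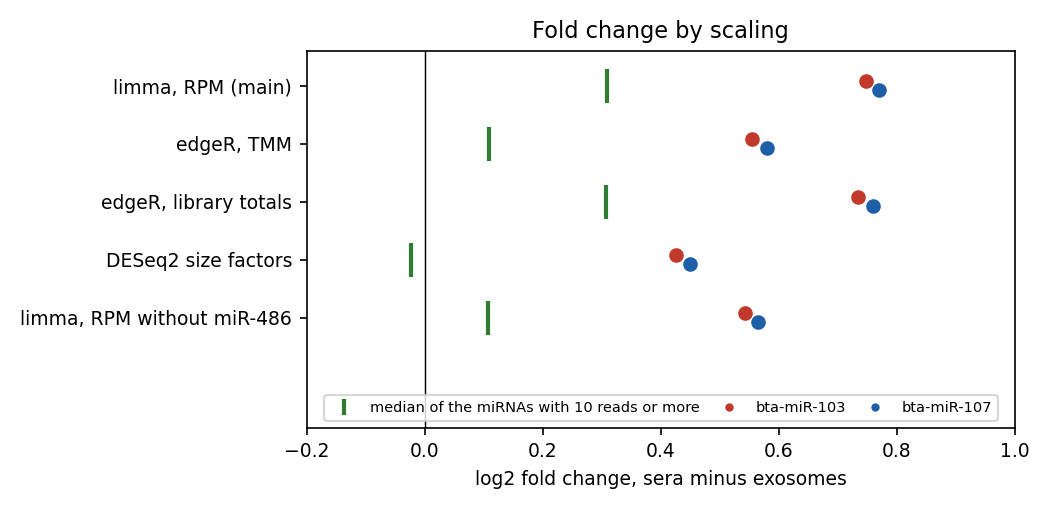
The log2 FC (sera minus exosomes) of bta-miR-103 (red) and bta-miR-107 (blue) under 5 scalings, with a green bar at the median of the well-counted miRNAs. From RPM to the size factors of DESeq2, bta-miR-103 moves from 0.75 to 0.43 and the median from 0.31 to -0.02.

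The 2 rows were nearly equal in every library, with bta-miR-103 the higher in 8 of 8. The ratio of bta-miR-103 to bta-miR-107 in cows 1 to 4 was 1.05, 1.04, 1.07 and 1.05 for sera, and for exosomes 1.08, 1.04, 1.09 and 1.07. The excess of bta-miR-103 was 158 to 239 reads in sera and 25 to 66 reads in exosomes. No source used here says how a read that fits both mature strands was counted. If such reads were counted in both rows, the rows would hold mostly the same reads, and the 2 tests above would be close to 1 test. For comparison, of the 8128 pairs among the 128 well-counted miRNAs, 5 stayed within 10% of each other in all libraries. These were the 2 members, 3 pairs with equal reads throughout, and 1 other pair. The log2 ratio was 0.072 ± 0.022 for sera and 0.094 ± 0.028 for exosomes (SD, n = 4), a difference with an exact permutation p of 0.314 (two-sided, ignoring the cow). It was the exosomes that had the higher ratio in 4 of 4 cows, with an exact sign-flip p of 0.125, below which 4 pairs cannot go. In both sample types the ratio was lowest in cow 2 and highest in cow 3.

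**Figure D4:**
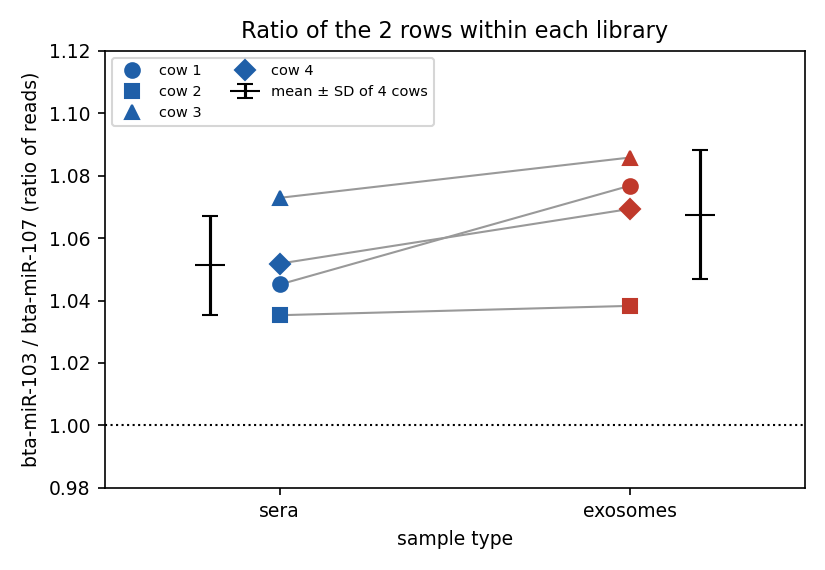
The ratio of reads of bta-miR-103 to bta-miR-107 in each library, with blue symbols for sera, red for exosomes, one shape and grey line per cow, and mean ± SD (n = 4) in black. All values lie above 1 (dotted), between 1.04 and 1.09, and each line rises from sera to exosomes.

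In the order of mean RPM, bta-miR-103 was ranked 22 and bta-miR-107 ranked 23 of 434 miRNAs with reads in sera. In exosomes they were ranked 25 and 26 of 353. MiRNA reads are whole molecules of nearly the same length, so levels of different miRNAs were set side by side without a correction for length. The order is one of reads, and whether the libraries captured different miRNAs equally was not tested. Just above them in sera were miR-148a (12094 ± 2607 RPM) and miR-126-5p (12064 ± 2797 RPM), and just below miR-423-3p (10916 ± 1736 RPM) and miR-150 (10066 ± 2007 RPM; SD, n = 4 for each). None of these neighbours was separated from either member, since each was above both in 1 or 3 of the 4 cows. In exosomes the neighbours were miR-27a-3p (8391 ± 2562 RPM) and miR-126-5p (7294 ± 1760 RPM) above, and miR-133a and miR-15a (6017 ± 485 RPM; SD, n = 4 for each) below. They were above bta-miR-103 in 1 to 3 of the 4 cows, so they were not separated from it. MiR-27a-3p was above bta-miR-107 in 4 of 4 cows, but in the exosomes of cow 2 only with 5115 against 5092 RPM. The value of miR-27a-3p there lay inside the Wilson interval of bta-miR-107 (4717 to 5496 RPM), so the 2 were not separated in that library. MiR-133a, a muscle miRNA, had 25279 RPM in the exosomes of cow 1 and 156 to 323 RPM in the other exosomes.

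The cows kept the same order in both sample types, with cow 1 highest, then cow 3, cow 4 and cow 2, for bta-miR-103 and for bta-miR-107. One order in both sample types was seen for 31 of the 128 well-counted miRNAs, and the order 1, 3, 4, 2 for 3 of them, the 2 members included. From the lowest to the highest cow, bta-miR-103 differed 1.32-fold in sera and 1.62-fold in exosomes. The coefficient of variation (CV) of bta-miR-103 between cows was 12.7% in sera and 20.2% in exosomes, against 1.83% and 4.39% from counting alone in the library with the fewest reads of it. That of bta-miR-107 was 12.9% and 18.8%. Among the miRNAs over 1000 RPM, bta-miR-103 had the CV ranked 15 from the lowest of 79 in sera and ranked 29 of 72 in exosomes. Cow 1 stood apart in other respects. The muscle miRNAs (miR-1, miR-133a, miR-133b, miR-206, miR-208b and miR-499) summed to 23097 RPM in its serum and 26301 RPM in its exosomes, against 203 to 244 RPM and 163.7 to 342.4 RPM in the other cows, with miR-206 at 0 reads and miR-1 at 1 read at most in every library. Their part in the high values of bta-miR-103 in cow 1 was not tested. Without cow 1, the CV of bta-miR-103 was 4.13% in sera and 17.5% in exosomes, and that of bta-miR-107 was 2.37% and 15.4%. With both libraries of cow 1 left out, the log2 FC was 0.77 for bta-miR-103 (limma FDR = 0.0525) and 0.79 for bta-miR-107 (limma FDR = 0.0459).

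MiR-103 is often used as a reference in measurements of blood miRNAs, so its spread was set beside that of 11 other miRNAs used in this way. In sera, the CV of these ranged from 8.28% for let-7i to 24.9% for miR-191, and 2 of the 11 were under that of bta-miR-103. In exosomes they ranged from 6.08% for miR-423-3p to 26.5% for let-7a-5p, and 4 of the 11 were under that of bta-miR-103. In the comparison of sera and exosomes, 0 of the 11 had an FDR under 0.05 by limma in either direction. Of all 365 miRNAs, 5.21% had one in favour of sera and 1.64% in favour of exosomes, so 0 of 11 is near that share. The median log2 FC of the 11 was 0.19, against 0.31 for all well-counted miRNAs. At an unadjusted p under 0.05, limma gave 2 in favour of sera and 0 in favour of exosomes, beside 22.7% and 3.01% of all 365 miRNAs. Of the 11, edgeR with TMM gave 0 with an FDR under 0.05 (2.74% of all miRNAs in favour of sera and 2.19% in favour of exosomes). DESeq2 gave 1 (miR-484), in favour of exosomes (4.98% and 6.64% of all). With the replicate block, 4 (miR-16b, miR-26a, miR-93 and let-7g) were higher in sera and 1 (miR-484) in exosomes with an FDR under 0.05, beside 23.0% and 3.29% of all miRNAs. The most abundant were miR-423-5p, miR-191 and miR-16b, with log2 FC of 0.13, 0.18 and 0.65 (limma FDR = 0.767, 0.709 and 0.0882). Between the sample types, the log2 FC of bta-miR-103 (0.75, standard error 0.20) was above that of each of the 11. The nearest was let-7g, with 0.70 (standard error 0.21, limma FDR = 0.0602). Next were miR-16b (0.65, standard error 0.21), miR-93 (0.42, standard error 0.20) and miR-26a (0.37, standard error 0.22). All of these lay inside the limma interval of bta-miR-103 (0.32 to 1.17), so bta-miR-103 was not separated from them. The others of the 11 had a log2 FC of 0.29 (let-7i) or less. Differences between miRNAs were not tested, so a separation from these was not shown either.

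**Figure D5:**
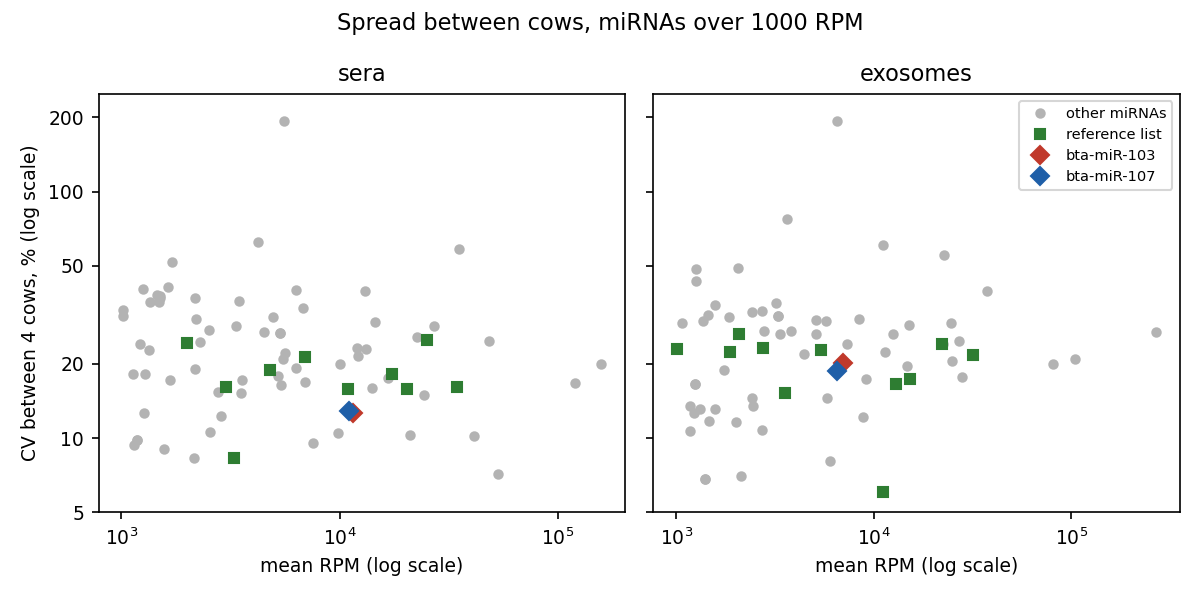
The CV between the 4 cows (log scale) against the mean RPM (log scale) for miRNAs over 1000 RPM in sera (left, 79 miRNAs) and exosomes (right, 72 miRNAs), with the reference list as green squares. Bta-miR-103 and bta-miR-107 lie at 12.7% and 12.9% in sera and at 20.2% and 18.8% in exosomes.

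The miRNAs whose levels followed those of bta-miR-103 most closely were sought among the 127 other well-counted miRNAs. Over the 8 libraries, which fall into 2 sample types and share 4 cows, Pearson r of log2(RPM + 1) was 0.998 for bta-miR-107, 0.958 for miR-128, 0.942 for miR-23a, 0.937 for miR-29a and 0.931 for miR-23b-3p. MiR-128, known from the nervous system and from lipid metabolism, had 3069, 2559, 3252 and 2566 RPM in sera and 1813, 1349, 1660 and 1458 RPM in exosomes. Like bta-miR-103 and 21.9% of the 128 well-counted miRNAs, it had every serum above every exosome library. Its log2 FC was 0.87 (limma FDR = 0.0115). MiR-23a and miR-23b-3p, which share a seed with each other, had log2 FC of 0.99 and 1.26 (limma FDR = 0.0198 and 0.0139). This r includes the step between the sample types. A choice by it favours miRNAs that are higher in sera, so these differences are no separate support. With the mean of each sample type removed, which leaves the differences between cows, r was 0.996 for bta-miR-107, 0.886 for miR-22-3p, 0.862 for miR-29c, 0.846 for miR-21-5p and 0.832 for miR-29a. These r were picked as the highest of 127 and rest on only 4 cows, each counted in both sample types. MiR-133a, which was high in cow 1 alone, reached an r of 0.837 with bta-miR-107. Whether these miRNAs vary together beyond the values of cow 1 was not tested. Between the sample types, miR-22-3p and miR-21-5p had log2 FC of 0.22 and -0.01 (limma FDR = 0.661 and 0.984).

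The miR-15 and miR-16 miRNAs are related to miR-103 and miR-107, since their seeds overlap in part. Of 8 listed, 7 were expressed, and miR-503-5p had at most 1 read in a library. MiR-16a was higher in sera, with 6824 ± 2313 RPM against 2433 ± 329 RPM (SD, n = 4) and a log2 FC of 1.44 (limma FDR = 0.00139). The other 6 did not pass an FDR of 0.05, among them miR-16b with a log2 FC of 0.65 (limma FDR = 0.0882) and miR-15a with 0.32 (limma FDR = 0.256). Of all 365 miRNAs, 5.21% passed in favour of sera. With the replicate block miR-16a, miR-16b and miR-15a, 3 of the 7, passed in favour of sera, as did 23.0% of all miRNAs. The median log2 FC of the 7 was 0.65, beside 0.57 over all 365 miRNAs, and of the 5 well-counted ones it was 0.32, beside 0.31.

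Among 15 other miRNAs known for roles in insulin, glucose or lipid metabolism, 1 passed an FDR of 0.05 in favour of sera and 0 in favour of exosomes by limma (5.21% and 1.64% of all 365 miRNAs). At an unadjusted p under 0.05 it was 6 and 0 (22.7% and 3.01% of all 365 miRNAs). EdgeR with TMM and DESeq2 each gave 1 in favour of sera with an FDR under 0.05, beside 2.74% and 4.98% of all miRNAs. The 1 by limma was miR-26b, with a log2 FC of 1.07 (limma FDR = 0.0111). The most abundant were miR-192 of liver and gut, miR-27b, which acts on lipid genes, and miR-143. Their log2 FC were 0.42, 0.58 and 0.60 (limma FDR = 0.409, 0.121 and 0.409). The median log2 FC of the list was 0.60 over 15 miRNAs, beside 0.57 over all 365, and 0.59 over the 10 well-counted ones, beside 0.31. With the replicate block 10 of the 15 passed in favour of sera, as did 23.0% of all miRNAs. MiR-122, the main miRNA of the liver, was low, with at most 64 reads in a library and 0 in the exosomes of cow 1.

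The summed levels of cell type markers were set beside these comparisons. Those of 8 erythrocyte miRNAs ranged from 243171 to 347150 RPM in sera and from 281154 to 509622 RPM in exosomes. Those of 7 platelet miRNAs ranged from 41270 to 56978 RPM and from 34747 to 45944 RPM, those of 7 leukocyte miRNAs from 31991 to 41267 RPM and from 32757 to 48219 RPM, and those of 4 hepatocyte miRNAs from 31794 to 57845 RPM and from 22228 to 57497 RPM. The ranges of every list overlapped between sera and exosomes. Within cows, however, the erythrocyte sum was higher in exosomes in 4 of 4 cows, the platelet and hepatocyte sums were higher in sera in 4 of 4, and the leukocyte sum was higher in sera in 2 of 4. The hepatocyte sum mostly followed miR-192 of liver and gut. It averaged 48189 of 48548 RPM in sera and 37236 of 37446 RPM in exosomes. MiR-191, also in the reference list, averaged 25096 of 47723 RPM of the platelet sum in sera and 22128 of 40350 RPM in exosomes. The erythrocyte sum mostly followed miR-486 and miR-92a. MiR-486 averaged 158802 of 284479 RPM in sera and 267558 of 406631 RPM in exosomes, and miR-92a averaged 53118.5 and 80913 RPM. By contrast, 5 of the 8 erythrocyte miRNAs had a log2 FC in favour of sera. The lists share members, such as miR-150 in the platelet and leukocyte lists. By limma, 2 of the erythrocyte miRNAs (miR-16a and miR-144) and 2 of the platelet miRNAs (miR-24-3p and miR-126-3p) had an FDR under 0.05 in favour of sera. The share of all miRNAs was 5.21% in favour of sera and 1.64% in favour of exosomes, where 0 of both lists passed. EdgeR with TMM gave 2 erythrocyte and 1 platelet miRNA in favour of sera (2.74% of all) and 0 in favour of exosomes (2.19%). DESeq2 gave 2 and 1 in favour of sera (4.98%), and also 2 and 1 in favour of exosomes (6.64%). The erythrocyte miRNAs miR-486 and miR-92a had log2 FC in favour of exosomes, of -0.73 (limma FDR = 0.149, with the replicate block 2.1e-05) and -0.59 (limma FDR = 0.132, with the block 7.3e-05). With the block, 3 of 8 erythrocyte miRNAs passed in favour of sera and 2 in favour of exosomes. In favour of sera it was 4 of 7 platelet, 3 of 7 leukocyte and 2 of 4 hepatocyte miRNAs. Of all miRNAs, 23.0% passed in favour of sera and 3.29% in favour of exosomes with the block. Without the block, 0 leukocyte, hepatocyte or muscle miRNAs passed by limma, edgeR with TMM or DESeq2, and at an unadjusted p under 0.05 limma gave 2 of 7, 1 of 4 and 0 of 4 in favour of sera, beside 22.7% of all miRNAs. The part of these cell types in the levels of bta-miR-103 and bta-miR-107 was not tested.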

How the data were processed

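The data are 8 small RNA libraries, a serum and an exosome library from each of 4 cows. The authors filtered reads by quality (CASAVA 1.8), cut the adaptors, mapped what was left onto bovine miRNAs (miRBase release 21) using sRNAbench, and deposited 1 table of RPM per library. The sRNAbench version is not given in the sources used here. Reads were recovered from the step between RPM values, and 100% of the values were whole reads within 0.06 RPM. In RPM, 3 reads were worth 5.08 to 11.3 in sera and 19.0 to 49.4 in exosomes.

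The main test was limma, fitted to log2(RPM + 1) with lmFit, then eBayes with a mean trend, without a block, over miRNAs above 1 RPM in at least 2 libraries of a sample type, with Benjamini-Hochberg FDR. The recovered reads were tested with edgeR (quasi-likelihood) and DESeq2. Since RPM were deposited, these were alternatives. On the recovered reads, edgeR with TMM called 10 miRNAs in favour of sera and 8 in favour of exosomes (FDR under 0.05). Single values were compared with exact permutation tests over 70 assignments. Limma and edgeR were also tested on simulated data, with changes set in miRNAs of middle abundance after a first form that also changed the rarest and most abundant ones had not met its limits. There limma called more false positives than its FDR allows when miRNAs with fewer than 10 reads in a library were included. It did not do so among the well-counted miRNAs, to which both members belong. The simulated data held no change in the most abundant miRNAs and no differences between cows. They therefore cannot say how limma behaves where a miRNA such as miR-486 shifts the RPM of the others. Libraries with the same number came from the same cow, as the study states, and their deviations from the mean of the sample type correlated across 128 miRNAs with r of 0.740 to 0.860.

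The members and lists were chosen with earlier results of these data known. Besides both members, the miRNAs named are the 5 most alike in level (and the 5 in deviations), the 3 most abundant of the related, metabolic and reference lists and any of these that passed both limits (FDR 0.05, log2 FC 1), and the 2 neighbours on each side in mean RPM. MiR-486, miR-122, those with the highest and lowest CV of the reference list and other members of the lists that passed a test were named after their values were seen. The alternatives were pseudocounts of 0.1 and 10, other filters, tests and totals, the block, and libraries or cows left out. Tests were run in R 4.3.3 (DESeq2 1.42.0, edgeR 4.0.16, limma 3.58.1). Other steps used Python 3.11.15 with SciPy 1.17.1, NumPy 2.4.6, matplotlib 3.10.9 and pandas 2.3.3. RT-qPCR and unmapped reads were not analysed here.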

Additional observations from a re-analysis of the deposited data

Results flagged for a closer look

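Of 18 sets of 4 libraries examined for a value far from the other 3, 3 had one by Dixon's test at 95%, which chance alone gives in about 1 of 20 sets. In sera, bta-miR-107 had 13103.6 RPM in cow 1, with the other sera at 10036.2 to 10518.6 RPM. The summed muscle miRNAs had 23097 RPM in the serum of cow 1, against 203 to 244 RPM, and 26301 RPM in its exosomes, against 163.7 to 342.4 RPM. These 3 values belong to the same cow, and whether they are linked was not tested.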

How the results depend on the processing

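The log2 FC of both miRNAs kept its sign under all 23 alternatives run for each, from 0.43 to 0.85 for bta-miR-103 (limma, edgeR or DESeq2 FDR from 1.9e-09 to 0.13) and from 0.45 to 0.87 for bta-miR-107 (FDR from 5.9e-10 to 0.112). The FDR was under 0.05 in 9 and 11 of them. It was not under 0.05 with edgeR and TMM (log2 FC of 0.56 and 0.58), with DESeq2 (0.43 and 0.45) or without miR-486 in the total (0.54 and 0.57), and for bta-miR-103 also with edgeR and library totals (0.73, FDR = 0.0569). Leaving out 1 library gave 0.62 to 0.85 for bta-miR-103 and 0.66 to 0.87 for bta-miR-107. With both libraries of a cow left out, a choice made after seeing the values, bta-miR-103 had 0.77, 0.67, 0.80 and 0.75 without cows 1 to 4, and bta-miR-107 had 0.79, 0.70, 0.83 and 0.77, with an FDR under 0.05 for bta-miR-107 without cow 1. Fewer libraries were tested in these fits.

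The difference in mean RPM was 3894 to 5137 for bta-miR-103 and 3797 to 4978 for bta-miR-107 with 1 library left out. Without cows 1 to 4 it was 4426, 4439, 4891 and 4665 for bta-miR-103 and 4277, 4349, 4804 and 4561 for bta-miR-107, where 3 against 3 libraries cannot go below an exact permutation p of 0.1. As a replicate block, the exact sign-flip test within cows, with differences of 4605 and 4498 RPM, cannot go below p = 0.125. The ratio was higher in exosomes as a ratio (log2 difference of -0.014 to -0.035 with 1 library left out), but the difference of the rows in RPM was 107 higher in sera (exact permutation test, p = 0.486), since the level itself was higher there.

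By limma 25 of the 365 miRNAs had an FDR under 0.05, and with 1 library left out 15 to 31, the lowest without the serum of cow 2. The number was 96 by limma and 79 by edgeR with the replicate block. Without both libraries of cow 2 it was 12, and without those of cow 4 it was 5. The excess of bta-miR-103 over bta-miR-107 rested on as few as 25 reads, in the exosomes of cow 2. The cause of these changes was not tested.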
